A study of Mus musculus with 6 samples.

Results

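To examine how nitrogen disposal genes of the liver behaved when human *SRY* was switched on in the mouse, 10 genes of the urea cycle and ammonia handling were followed on liver bead arrays: *Nags*, *Cps1*, *Otc*, *Ass1*, *Asl*, *Arg1*, *Slc25a13*, *Slc25a15*, *Glul* and *Gls2*. All probes of the array whose symbol was one of these were taken, whatever their values, which gave 18 probes among the 25697 of the table and 10 of its 18138 gene symbols. The arrays held total liver RNA of male pups at postnatal day 6, of strain FVB by the labels and FVB/N by the study's methods, with 3 arrays for hSRY-ON and 3 for hSRY-OFF. The hSRY-ON pups carried Signalox-hSRY, a single-copy cassette at the *H11* locus with FLAG-tagged human *SRY* and *EGFP* behind the ubiquitous CAG promoter, and recombination by Cre protein from the oocyte of *Ddx4-Cre* mothers had switched it on in the fertilized egg, so that the whole body and not the liver alone carried the active gene. For the arrays the study chose hSRY-ON pups that had not inherited *Ddx4-Cre* themselves. In the hSRY-OFF group the human gene had not been switched on. The study describes its controls both as carriers of the silent, non-recombined cassette, which expresses *DsRed2*, and as littermates with *Ddx4-Cre* alone or with no transgene, and the labels of these arrays say only hSRY-OFF. Its animals come from 1 responder line with 1 insertion. The study reports that hSRY-ON pups grew poorly, suckled little, lacked milk in the stomach and gut, and had fatty livers. Growth, feeding, liver fat and the transgene therefore cannot be told apart in this contrast. The study calls the samples biological triplicates, and the litters of the pups are not given.

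The urea cycle turns ammonia, which is toxic to the brain, into urea, and it runs in full only in hepatocytes. *Nags* makes N-acetylglutamate, the obligate activator of carbamoyl phosphate synthetase, the product of *Cps1*, which fixes ammonia in the mitochondrion, and the ornithine transcarbamylase encoded by *Otc* then forms citrulline. Citrulline leaves the mitochondrion in exchange for ornithine through the carrier encoded by *Slc25a15*. In the cytosol argininosuccinate synthetase (*Ass1*), argininosuccinate lyase (*Asl*) and arginase (*Arg1*) complete the cycle, with aspartate supplied by the carrier encoded by *Slc25a13*. Hepatocytes around the portal vein also split glutamine with liver glutaminase (*Gls2*), which releases ammonia for the cycle, while those around the central vein capture what remains with glutamine synthetase (*Glul*).

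The 6 arrays detected 10318 to 10762 probes each, 40.2% to 41.9% of the table, at a detection p under 0.01. Levels below are log2 intensities after background correction and quantile normalization, an SD is over the 3 arrays of a group, and a difference is hSRY-ON minus hSRY-OFF with its SE from the limma fit. A probe was called higher or lower at a Benjamini-Hochberg adjusted p under 0.05 over the 10734 probes tested, those detected on at least 3 of the 6 arrays. As a check of the tissue, the hepatocyte marker *Ahsg*, a plasma glycoprotein of the liver, lay near the top of the scale at 15.41 in hSRY-OFF and 15.42 in hSRY-ON, while the probes of the hepatocyte enzymes *Tat* and *Tdo2* were detected on no array. No probe of the table is named for *EGFP* or *DsRed2*, and the mouse *Sry* probe was detected on no array, so the transgene itself gave no check of the group labels. Since whole liver was used, fewer cells of a type and less RNA per cell cannot be told apart in any level reported here.

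Of the 10 genes, *Arg1* was higher in hSRY-ON, *Nags* and *Gls2* were lower, and *Cps1*, *Ass1*, *Asl* and *Slc25a15* did not pass the test. The probes of *Otc*, *Slc25a13* and *Glul* were detected on no array. Of the 13 probes tested, which represent 7 genes, 1 was called higher (7.7%) and 5 lower (38.5%), 46.2% in all. The lower calls came from *Nags* and *Gls2* alone. Among all tested probes 33.1% were called, 15.8% higher and 17.2% lower, so that calls were common across the array. The pooled share among the 13 probes stood not far above that background, with a larger share lower and a smaller share higher. The median difference of the 13 probes was -0.33, against 0.02 over all tested probes. *Nags* and *Gls2* weigh on it with several probes each. With the probes of a gene averaged, differences were -1.04 for *Gls2*, -0.72 for *Nags* and -0.45 for *Slc25a15*. They were 0.40 for *Ass1*, 0.45 for *Asl*, 0.47 for *Cps1* and 1.05 for *Arg1*, so the estimates went in both directions. In 6 of the 13 probes the groups did not overlap, the same 6 that were called, of which 1 lay higher and 5 lower. Of all tested probes 50% had groups without overlap, 25.4% higher and 24.6% lower.

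**Figure D1:**
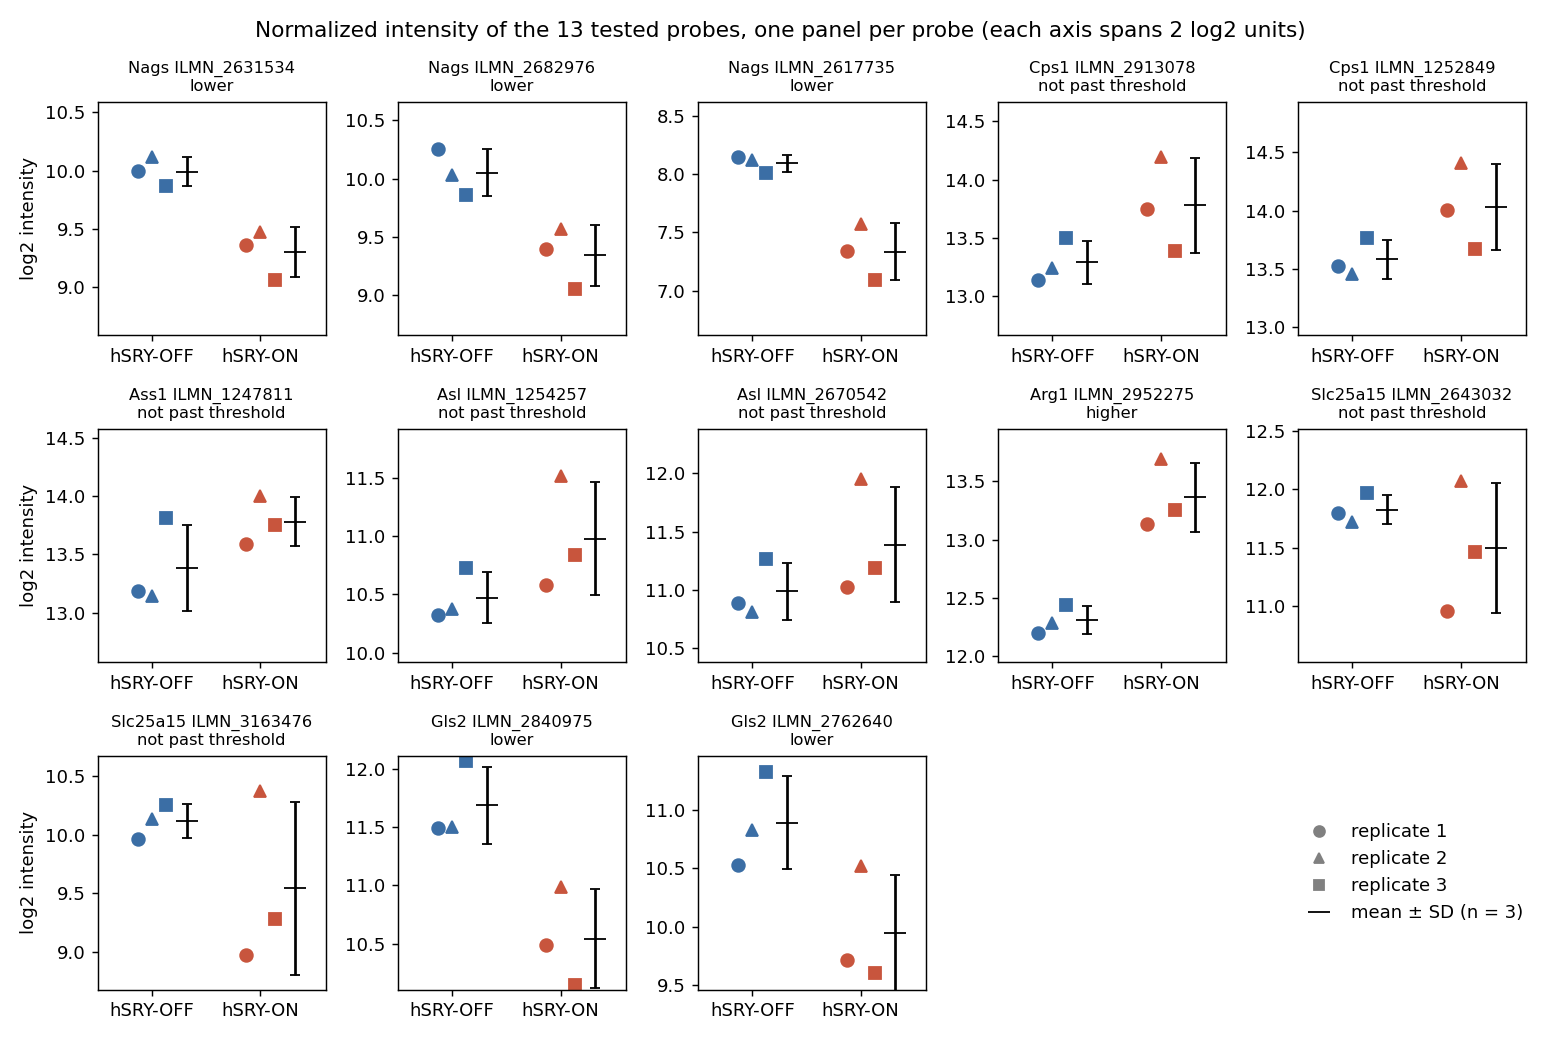
Log2 intensity of each of the 13 tested probes on each array, with hSRY-OFF in blue, hSRY-ON in red, a symbol for each replicate number and the group mean with its SD (n = 3) in black. The groups are separated for the 3 *Nags* probes, the *Arg1* probe and the 2 *Gls2* probes, and replicate 2 is the highest hSRY-ON array in all 13 panels.

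*Nags*, whose product switches on the entry step of the cycle, fell on all 3 of its probes. Probe ILMN_2617735 read 8.15, 8.12 and 8.01 on hSRY-OFF arrays 1 to 3 and 7.34, 7.57 and 7.09 on hSRY-ON arrays 1 to 3. Every hSRY-ON array lay below every hSRY-OFF array, and the 3 control values were close together with an SD of 0.07. The difference was -0.76 ± 0.15 (limma, adjusted p = 0.00872), so that the hSRY-ON level was 0.591 of the control level, with a 95% confidence interval of 0.463 to 0.754. Probe ILMN_2631534 read 9.99, 10.11 and 9.87 in hSRY-OFF against 9.37, 9.48 and 9.07 in hSRY-ON, a difference of -0.69 ± 0.15 (limma, adjusted p = 0.0118). On ILMN_2682976 the values were 10.26, 10.04 and 9.86 against 9.40, 9.57 and 9.06, a difference of -0.71 ± 0.17 (limma, adjusted p = 0.0195). The groups were separated on both of these probes too, and hSRY-ON replicate 3 was the lowest array on all 3. ILMN_2617735 kept its call when each array was left out in turn. The other probes lost theirs without hSRY-OFF replicate 1 (adjusted p = 0.0502 and 0.0787, limma) or without hSRY-OFF replicate 2 (0.0525 and 0.0639), with differences between -0.61 and -0.71.

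For 6 of the 10 genes a stretch of 250 bases before the transcription start was at hand, as 7 windows because *Slc25a15* has 2 starts, from RefSeq on build GRCm38.p6. The genes with a window were *Nags*, *Otc*, *Ass1*, *Slc25a13*, *Slc25a15* and *Glul*. The windows were searched on both strands for the letters AACAAT, the core that SRY and SOX proteins are known to bind, for TTNNGNAA, a consensus of the C/EBP factors long known as activators of urea cycle genes, for CAAAGTCCA, a site of HNF4, and for TGACGTCA, the cyclic AMP response element. AACAAT was in 0 of the 7 windows and in 9.43% of 32841 windows of the same length across the genome. TTNNGNAA was in 2 of the 7, those of *Nags* (1 match) and *Otc* (2 matches), and in 36.9% of all windows. CAAAGTCCA and TGACGTCA were in 0 of the 7, and in 0.384% and 1.55% of all windows. The *Nags* window (chr11:102145263-102145512, plus strand) is shown because this gene fell on all its probes and holds a C/EBP letter match, in capitals, that begins 231 bases before the start. The *Ass1* window (chr2:31470020-31470269, plus strand), of a gene that did not pass the test, holds none of the 4 motifs and is shown for comparison, without capitals. A letter match describes the sequence and is not evidence of a bound factor. The *Otc* window, with 2 matches, is not shown, and the called genes *Arg1* and *Gls2* have no window. Whether a match goes with a call was not tested.
Nags: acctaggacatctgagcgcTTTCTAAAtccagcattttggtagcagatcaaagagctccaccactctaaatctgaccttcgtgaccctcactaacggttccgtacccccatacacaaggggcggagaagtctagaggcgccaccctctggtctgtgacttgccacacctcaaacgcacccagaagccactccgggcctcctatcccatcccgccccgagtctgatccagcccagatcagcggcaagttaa
Ass1: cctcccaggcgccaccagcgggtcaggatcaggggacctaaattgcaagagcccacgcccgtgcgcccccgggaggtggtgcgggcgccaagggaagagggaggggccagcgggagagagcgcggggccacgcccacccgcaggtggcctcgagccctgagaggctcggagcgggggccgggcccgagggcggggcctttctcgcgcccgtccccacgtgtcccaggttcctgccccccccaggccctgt

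*Cps1*, which encodes the abundant mitochondrial enzyme that commits ammonia to the cycle, did not pass the test on either probe. ILMN_2913078 read 13.14, 13.24 and 13.50 in hSRY-OFF and 13.75, 14.20 and 13.39 in hSRY-ON. Replicates 1 and 2 of hSRY-ON lay above all controls, but replicate 3 lay below the highest control. The difference was 0.49 ± 0.22 (limma, adjusted p = 0.123), with a 95% confidence interval of the ratio of 0.986 to 1.99. On ILMN_1252849 the values were 13.53, 13.45 and 13.77 against 14.01, 14.41 and 13.67, a difference of 0.45 ± 0.20 (limma, adjusted p = 0.126), with the same hSRY-ON array inside the control range. The size of the difference hung on single arrays. Without hSRY-ON replicate 3 the differences were 0.68 and 0.62 (limma, adjusted p = 0.0273 and 0.0288). Without hSRY-ON replicate 2 they were 0.27 and 0.25 (limma, adjusted p = 0.280 and 0.289). The interval of the first probe runs from just below the control level to well above it, so these arrays do not show that *Cps1* stayed the same.

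The 2 probes of *Otc*, the X-linked enzyme that joins carbamoyl phosphate to ornithine, were at background on every array, with intensities before correction of 122 to 149 and no detection p under 0.352. Whether these probes report the *Otc* transcript was not tested, and no level or change of *Otc* can be read from them.

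Among the cytosolic enzymes *Arg1*, which releases urea from arginine, rose. Its single probe ILMN_2952275 read 12.20, 12.29 and 12.44 in hSRY-OFF and 13.14, 13.69 and 13.26 in hSRY-ON. The lowest hSRY-ON array stood clearly above the highest control. The difference was 1.05 ± 0.17, a rise of 2.08-fold with a 95% confidence interval of 1.57 to 2.74 (limma, adjusted p = 0.00409). Of all tested probes 4.86% had a larger difference in the same direction. The call held without each array in turn, with differences from 0.88 to 1.17 and a highest adjusted p of 0.0245 (limma).

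*Ass1*, which joins citrulline to aspartate, read 13.19, 13.15 and 13.81 in hSRY-OFF and 13.59, 14.00 and 13.75 in hSRY-ON on ILMN_1247811. The third control array lay inside the hSRY-ON range, so the groups overlapped. The difference was 0.40 ± 0.21, interval -0.09 to 0.89 (limma, adjusted p = 0.181). Without hSRY-OFF replicate 3 it was 0.61 (limma, adjusted p = 0.0433), and without hSRY-ON replicate 2 it was 0.27 (adjusted p = 0.383). *Asl*, which splits argininosuccinate into arginine and fumarate, read 10.32, 10.37 and 10.72 against 10.58, 11.51 and 10.84 on ILMN_1254257. Its second probe, ILMN_2670542, read 10.89, 10.81 and 11.26 against 11.03, 11.95 and 11.19. On both probes hSRY-ON replicate 2 stood far above the other 5 arrays, and the remaining hSRY-ON arrays lay within or close to the control range. The differences were 0.50 ± 0.25 and 0.40 ± 0.26 (limma, adjusted p = 0.159 and 0.262), and they were 0.24 and 0.12 without that array. The point estimates of all 4 cytosolic probes were above 0, but whether the change of *Arg1* differed from that of *Ass1* or *Asl* was not tested.

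Of the mitochondrial carriers *Slc25a15*, the ornithine and citrulline exchanger, showed the widest spread among hSRY-ON arrays. ILMN_2643032 read 11.80, 11.72 and 11.96 in hSRY-OFF and 10.96, 12.07 and 11.46 in hSRY-ON. ILMN_3163476 read 9.96, 10.13 and 10.25 against 8.97, 10.38 and 9.27. On both probes hSRY-ON replicates 1 and 3 lay below all controls and replicate 2 lay above all of them. The SD of the second probe was 0.15 in hSRY-OFF and 0.74 in hSRY-ON. The differences of -0.33 ± 0.27 and -0.57 ± 0.34 did not pass the test (limma, adjusted p = 0.375 and 0.227). Without hSRY-ON replicate 2 they were -0.62 and -0.99 (limma, adjusted p = 0.0483 and 0.00623). Without hSRY-ON replicate 1 they were -0.06 and -0.29 (limma, adjusted p = 0.863 and 0.545). The 2 probes of *Slc25a13*, the aspartate and glutamate exchanger known as citrin, were detected on no array, with intensities of 132 to 165 before correction (the *Slc25a13* detection p went no lower than 0.0777).

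*Gls2*, the liver glutaminase that feeds ammonia to the cycle, fell on both of its probes. ILMN_2840975 read 11.49, 11.50 and 12.06 in hSRY-OFF and 10.49, 10.99 and 10.15 in hSRY-ON. No hSRY-ON array reached the lowest control. The difference was -1.14 ± 0.25 (limma, adjusted p = 0.0129), which puts the hSRY-ON level at 0.453 of the control level, interval 0.302 to 0.681. ILMN_2762640 read 10.53, 10.83 and 11.32 against 9.72, 10.52 and 9.60, a difference of -0.95 ± 0.29 (limma, adjusted p = 0.0427). Here hSRY-ON replicate 2 almost reached the lowest control, although the groups did not overlap. The first probe kept its call without each array in turn (highest adjusted p = 0.0447, limma). The second lost it in all such fits except the one without hSRY-ON replicate 2, with an adjusted p of up to 0.126 (limma, without hSRY-OFF replicate 3), and it lost it with replicate number as a block (0.0540). The single probe of *Glul*, which makes glutamine from ammonia in perivenous hepatocytes, was detected on no array, with intensities of 129 to 155, so that the opposite arm of glutamine handling could not be read.

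**Figure D2:**
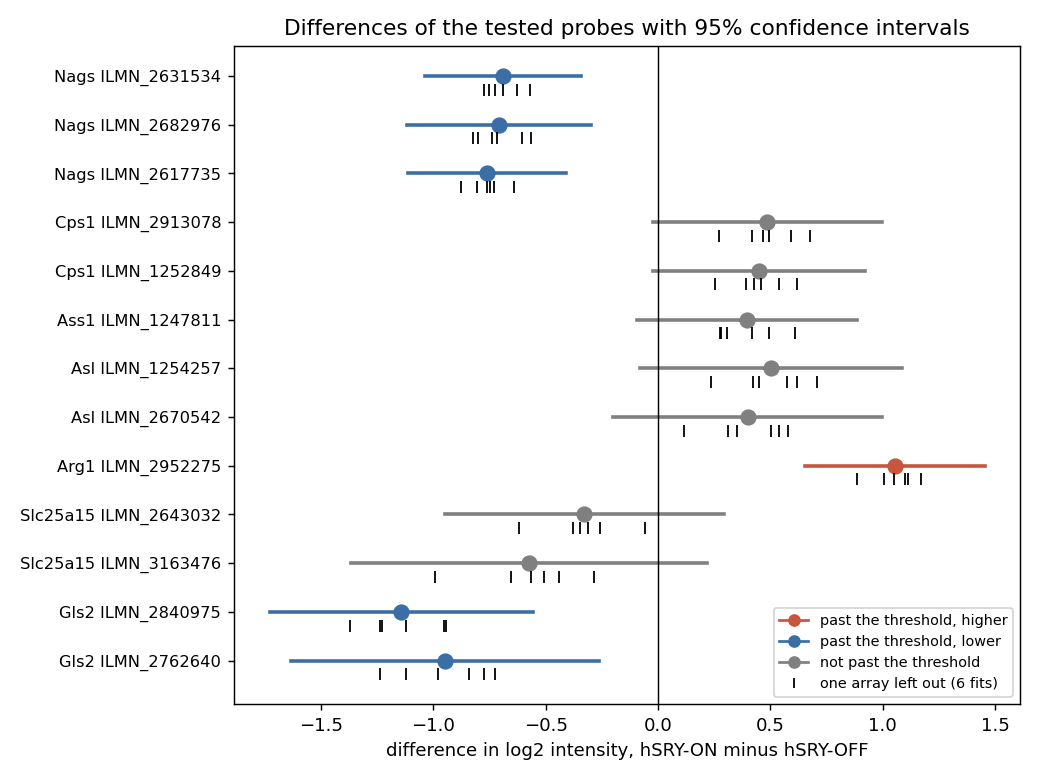
Difference in log2 intensity, hSRY-ON minus hSRY-OFF, of the 13 tested probes (dots) with 95% confidence intervals (lines), and the differences with each of the 6 arrays left out in turn (ticks). The intervals of *Nags*, *Arg1* and *Gls2* exclude 0 and those of the other genes include it, and no tick crosses to the other side of 0.

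When the tested probes of a gene were averaged before the fit, the same 3 genes passed. The differences were -0.72 for *Nags*, 1.05 for *Arg1* and -1.04 for *Gls2* (limma, adjusted p = 0.0112, 0.00408 and 0.0225). The averaged difference was 0.47 for *Cps1* and 0.45 for *Asl* (adjusted p = 0.121 and 0.203, limma), and -0.45 for *Slc25a15* (0.277). Probes of 1 gene read the same transcripts on the same arrays and are not independent, so their like directions add no replicates.

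The arrays within a group were ordered alike across these genes. All 13 tested probes were highest, among the hSRY-ON arrays, in replicate 2, whereas 31.6% of all tested probes were. The lowest hSRY-ON array was replicate 1 for 6 probes and replicate 3 for 7. Among the hSRY-OFF arrays replicate 3 was highest for 10 of 13 probes, against 33.7% of all tested probes, and the exceptions were the 3 *Nags* probes. The median SD of the 13 probes was 0.19 in hSRY-OFF and 0.40 in hSRY-ON, against 0.14 and 0.21 over all tested probes. Genes called and genes not called shared the order, so the hSRY-ON array with the most *Cps1* signal was also the one with the least reduced *Gls2* signal.

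**Figure D3:**
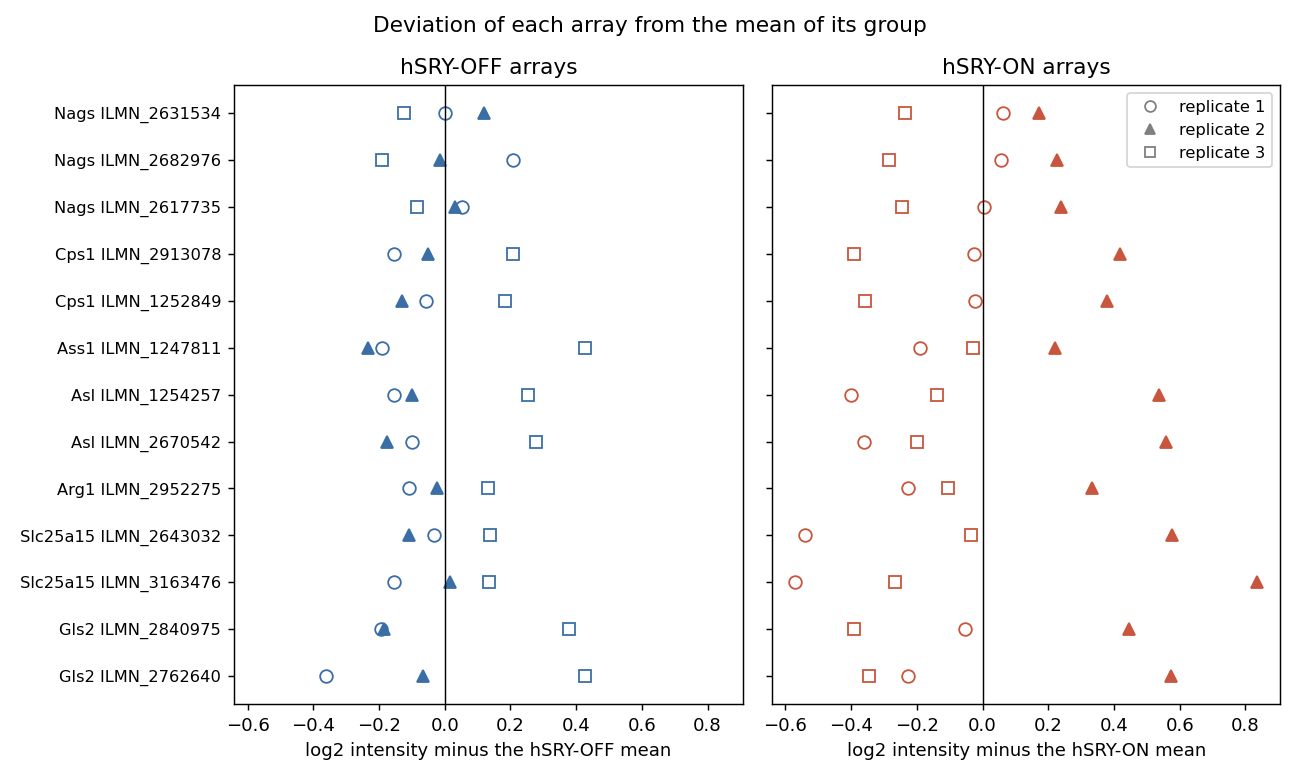
Log2 intensity of each array minus the mean of its own group for the 13 tested probes, with hSRY-OFF arrays on the left and hSRY-ON arrays on the right, replicate 2 filled. In the right panel replicate 2 lies farthest to the right in every row, by up to 0.84 above the mean for *Slc25a15*, and in the left panel replicate 3 is farthest right for all genes but *Nags*.

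Markers of other cell types partly shared these orders. Of 10 endothelial probes 7 were highest among hSRY-ON arrays in replicate 2, as was the single tested biliary probe, and 6 of 7 erythroid probes were highest among hSRY-OFF arrays in replicate 3. All 9 neutrophil probes and all 11 macrophage probes were highest among hSRY-ON arrays in replicate 3, with mean neutrophil marker levels of 10.42, 10.71 and 12.28 on hSRY-ON arrays 1 to 3 and 10.97 to 11.25 in hSRY-OFF. Of 11 hepatocyte probes 4 were highest in hSRY-ON replicate 2 alone. The bright probes of *Apoa2* and *Ahsg* (ILMN_2764036) tied there with another hSRY-ON array and could not show an order. By limma 0 of the 11 were called higher, at an unadjusted p under 0.05 too, and 3 lower. The log2 of the summed signal, which bright probes dominate, was 18.01 to 18.03 in hSRY-OFF and 17.86 to 17.92 in hSRY-ON. The mean level, in which each of the 11 probes counts alike, was 13.27 to 13.33 in hSRY-OFF and 12.90 to 13.11 in hSRY-ON. The erythroid list, present because the newborn liver still makes blood, had 2 of 7 probes called higher and a summed signal of 15.96 to 16.33 in hSRY-OFF and 16.29 to 16.50 in hSRY-ON. Among the other lists the endothelial markers had 3 of 10 probes higher, of *Pecam1* and *Lyve1*, and 1 lower (*Clec4g*, the brightest, at -0.58). The stellate cell markers had 5 of 13 higher and 2 lower. The higher calls were probes of *Acta2* (2.46 to 3.13) and *Des*, most of them of *Acta2*, and the lower ones *Reln* (the brightest, at -0.66) and *Lrat*. The macrophage markers had 1 of 11 higher and 4 lower (*C1qb*, the brightest and not called, at -0.11). Probes of 1 gene are not separate markers. Of the 9 neutrophil probes 0 were called in the limma fit (0 higher and 1 lower at an unadjusted p under 0.05), and *S100a8*, the brightest, differed by -0.07. The single tested biliary probe, *Krt7*, differed by -0.08 and was not called, the single tested pancreatic acinar probe, *Cela1*, was called at 0.44, and 0 of 4 intestinal probes were detected on any array. The acinar markers *Cpa1* and *Cel* were detected on hSRY-ON replicate 2 alone, at 6.09 and 7.12 against 4.51 to 4.99 and 4.50 to 5.29 on the other 5 arrays, while *Pnlip* was detected on no array and *Cela1* was lowest, among hSRY-ON arrays, on replicate 2. The brightest erythroid probe, *Hba-a1*, sat at the top of the scale, 15.50 in both groups, and could not show a change. The part of these cell types in the results for *Arg1*, *Nags* and *Gls2* was not tested. Without hSRY-ON replicate 2 the differences of *Nags* ILMN_2617735, *Gls2* ILMN_2840975 and *Arg1* were -0.88, -1.37 and 0.88. Without hSRY-ON replicate 3 they were -0.64, -0.95 and 1.10. These probes were picked for keeping their calls without each array in turn, so their calls in these fits were fixed by that choice. The other *Nags* probes kept theirs in both fits. *Gls2* ILMN_2762640 kept its call without hSRY-ON replicate 2 and lost it without hSRY-ON replicate 3 (-0.78, limma, adjusted p = 0.0892).

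Other genes that meet the cycle were taken from lists written for nitrogen metabolism, and are given as counts of tested probes beside the background of 15.8% higher and 17.2% lower. Enzymes and carriers that supply nitrogen to the cycle showed 2 of 13 probes higher and 2 lower, with a median difference of 0.08. The probes called were those of *Gpt2*, a mitochondrial alanine aminotransferase (2.22-fold higher), *Mdh2*, mitochondrial malate dehydrogenase (1.47-fold higher), *Sirt5*, the desuccinylase known to act on carbamoyl phosphate synthetase (0.708 of the control level), and *Got2*, mitochondrial aspartate aminotransferase (0.779 of it). In the limma fits with 1 array left out these calls held in 1, 2, 1 and 0 of 6 fits respectively, so none of them was stable. The other *Sirt5* probe, ILMN_2707079, was not called (-0.35, limma, adjusted p = 0.192).

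Transport and use of glutamine and ammonia gave 2 of 17 probes higher and 5 lower, median -0.07. *Asns*, asparagine synthetase, rose from 8.88 to 9.94 in mean level on ILMN_2643513 (limma, adjusted p = 0.00708). On ILMN_3006123 it rose by 0.81 on the log2 scale (limma, adjusted p = 0.0291), and its other probe was detected on no array. *Slc38a3*, the glutamine transporter SNAT3 of the hepatocyte membrane, read 12.19, 12.41 and 12.19 in hSRY-OFF and 10.86, 11.38 and 10.95 in hSRY-ON, a difference of -1.20 ± 0.17 (limma, adjusted p = 0.00223). *Aqp9*, a channel for glycerol and urea, fell by 1.13 on the log2 scale (limma, adjusted p = 0.00105). *Rhbg*, an ammonium transporter of perivenous hepatocytes, was detected on all hSRY-OFF arrays, at a mean of 7.97, and on no hSRY-ON array, and was at least 4.81-fold lower (limma, adjusted p = 6.7e-05). Such a bound divides the mean of the brighter group by the mean, over the dimmer arrays, of the lowest signal of a detected probe or the probe's own signal if higher. It holds for this background correction only, since the difference of *Rhbg* was -1.87 with normexp on the intensities alone and -1.29 without background correction, both smaller in size than the bound, which is -2.27 on the log2 scale. The calls of *Asns* (ILMN_2643513), *Slc38a3* and *Aqp9* held without each array in turn. *Rhbg* was tested in only 3 of these fits, because leaving out a control array left it with fewer than 3 detections.

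The fate of arginine and ornithine outside the cycle was, apart from the perivenous list below, the list with the largest share of calls, 5 of 17 probes higher and 6 lower, median 0.34. *Slc7a2* encodes a cationic amino acid transporter that brings arginine into hepatocytes. Its probe ILMN_2642349 read 7.62, 7.96 and 7.50 in hSRY-OFF and 9.57, 10.24 and 9.22 in hSRY-ON, a rise of 3.95-fold (limma, adjusted p = 0.00189). A dimmer probe, ILMN_3038743, was detected on no hSRY-OFF array and was at least 1.47-fold higher (limma, adjusted p = 0.0392). The third *Slc7a2* probe was detected on no array. *Oat*, ornithine aminotransferase, which diverts ornithine from the cycle, read 11.33, 11.16 and 11.47 against 12.73, 13.08 and 11.84, a difference of 1.23 ± 0.30 (limma, adjusted p = 0.0184). The third hSRY-ON array of *Oat* was close to the controls, and its call was lost without hSRY-OFF replicate 1 or 2 or hSRY-ON replicate 1 (highest adjusted p = 0.0708, limma). *Prodh*, a proline dehydrogenase, was 1.27 higher (1.18 with its 1 undetected control array at the detection floor). *Gamt*, which makes creatine from the guanidinoacetate derived from arginine, fell from 12.90 to 10.28, *Aldh4a1*, the last enzyme of proline breakdown, from 14.08 to 11.96, and *Prodh2*, a hydroxyproline dehydrogenase, from 13.53 to 12.06 (limma, adjusted p = 0.000752, 0.000567 and 0.000766). The calls of *Slc7a2* (ILMN_2642349), *Prodh*, *Gamt*, *Aldh4a1* and *Prodh2* (ILMN_1252471) held without each array in turn.

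Of the enzymes that release ammonia from amino acids 0 of 11 probes were called higher by limma, 2 at an unadjusted p under 0.05, and 3 lower, median 0.02. *Gldc*, the decarboxylase of the glycine cleavage system, fell by 0.93 on the log2 scale on ILMN_1218747 (limma, adjusted p = 0.00249). *Il4i1*, an amino acid oxidase of immune cells, was detected on all hSRY-OFF arrays and on no hSRY-ON array and was at least 1.42-fold lower (limma, adjusted p = 0.00203), with a smaller difference of -0.42 on the log2 scale without background correction.

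Among 9 tested probes of factors known to act on urea cycle genes, 2 were higher and 3 lower, median -0.09. The pair of C/EBP factors moved in opposite directions. *Cebpa*, which maintains the differentiated hepatocyte, read 9.64, 9.68 and 9.75 in hSRY-OFF and 8.33, 8.38 and 7.37 in hSRY-ON, a difference of -1.66 ± 0.27 (limma, adjusted p = 0.00389). *Cebpb*, induced by glucagon and in the acute phase response, read 11.17, 11.35 and 10.78 against 12.55, 12.72 and 12.19, a difference of 1.39 ± 0.20 (limma, adjusted p = 0.00264). Neither pair of groups overlapped, and both calls held without each array in turn. *Gcgr*, the glucagon receptor, fell by 1.20 on the log2 scale (limma, adjusted p = 0.00398). *Ppargc1a*, a coactivator of the fasting response, was 3.26-fold higher and *Foxa2*, a pioneer factor of the liver, stood at 0.562 of the control level (limma, adjusted p = 0.0448 and 0.0303), but each call held in only 1 of the 6 fits with 1 array left out. *Hnf4a*, a master regulator of hepatocytes, chosen after its values were seen, read 9.94 in hSRY-OFF and 9.85 in hSRY-ON (limma, adjusted p = 0.768).

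Because the cycle and *Gls2* are periportal and *Glul* perivenous, markers of both zones were counted. Of 7 periportal probes 0 were called higher by limma, 2 at an unadjusted p under 0.05, and 1 lower, median 0.07. The probe called was that of *Ctsc*, a lysosomal protease, at least 1.30-fold lower, close to the detection floor, with a difference of -0.24 on the log2 scale without background correction. Of 17 perivenous probes, which represent 12 genes, 4 were called higher and 13 lower, median -1.55, so that every tested probe of this list passed. This is partly built in. *Rhbg*, *Lgr5*, *Tbx3* and *Slc1a2* ILMN_3076439 were detected on all hSRY-OFF arrays and on no hSRY-ON array, so they entered the test through the higher group alone. The median is the value of *Lgr5*, which was -0.52 with undetected arrays at the floor. *Cyp1a2*, a perivenous cytochrome P450, fell by 5.90 on the log2 scale (a difference of -5.56 when the undetected hSRY-ON arrays are set at their floor), and *Rhbg*, described above, belongs here too (limma, adjusted p = 3.24e-05 and 6.7e-05). The higher calls were the probe of *Oat* and several probes of *Cyp27a1*, a sterol hydroxylase (1.42 on the strongest, limma, adjusted p = 0.00845). The perivenous count was 1 to 4 higher and 8 to 13 lower when single arrays were left out, with 8 lower without any one hSRY-OFF array, when dim probes such as *Rhbg* were not tested, and 1 higher without hSRY-OFF replicate 1, hSRY-OFF replicate 2 or hSRY-ON replicate 1. *Rhbg*, *Oat* and *Slc1a2* are also in the lists above. Periportal markers shared the array order of the cycle genes, with 6 of 7 probes highest in hSRY-ON replicate 2 and 6 of 7 in hSRY-OFF replicate 3. The difference between the zones was not tested.

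**Figure D4:**
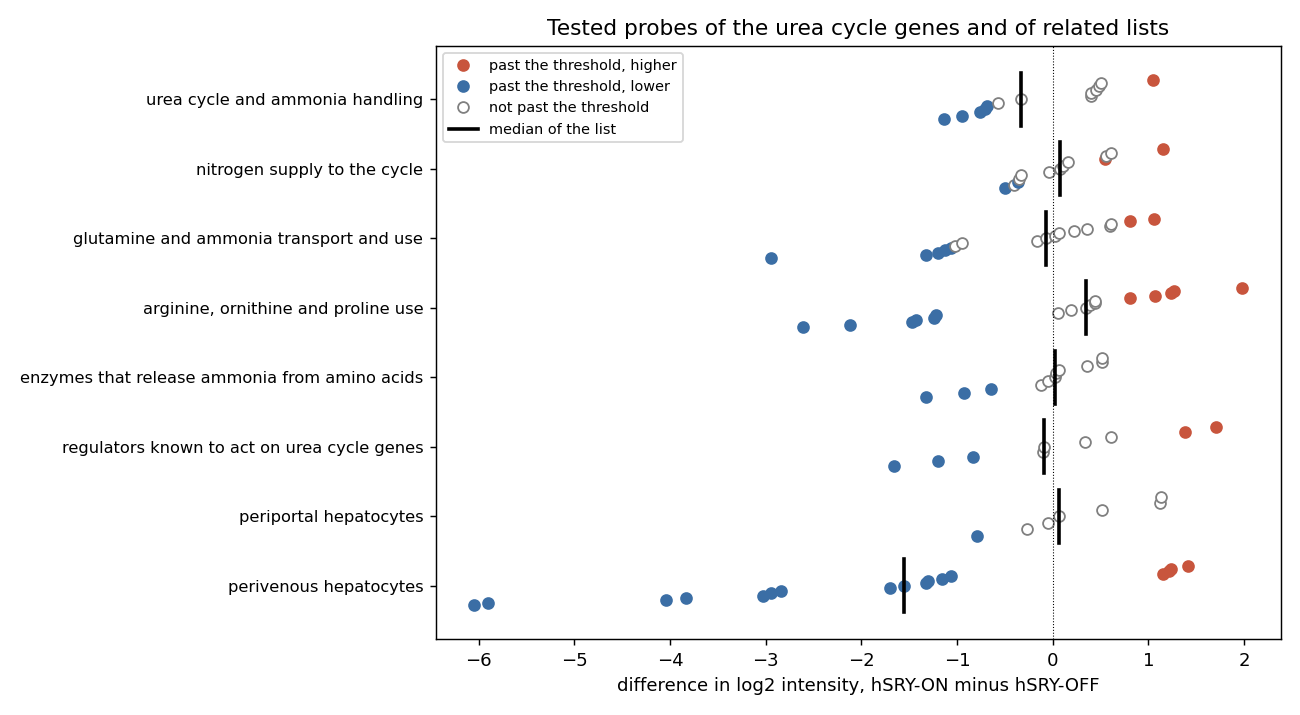
Difference in log2 intensity, hSRY-ON minus hSRY-OFF, of every tested probe of the urea cycle genes and of 7 related lists, with called probes filled, others open and the median of each list as a bar. The urea cycle probes lie between -1.14 and 1.05, while the perivenous probes reach -6.05 and are all filled.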

How the data were processed

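Liver RNA of 3 hSRY-ON and 3 hSRY-OFF pups was measured on Illumina mouse bead arrays. The authors deposited, for each array, a mean bead intensity and a detection p-value per probe, not normalized and not background-corrected as far as the values show. The study names TCC, a package for counts, and the submitters' processing notes list limma. That package models counts, which bead intensities are not, so limma was used here. With limma 3.58.1 in R 4.3.3, background was removed by normexp with the detection p-values (offset 16), arrays were quantile normalized and values taken to log2. The offset shrinks the differences of dim probes. Probes that at least 3 of 6 arrays detected (p under 0.01), whatever their group, were tested with lmFit and eBayes, two-sided, with Benjamini-Hochberg adjustment over all tested probes and a threshold of 0.05. The steps were also run on simulated data with 200 changed probes and independent noise. Such data lack the many changes and the shared array order seen here, so they do not test the steps under those conditions. With 3 arrays per group, their number limits the precision.

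All 10 urea cycle genes were named whatever their values, and from each related list up to 3 probes called higher and 3 called lower with the smallest p, 1 per symbol; a gene that this rule would name is not reported here. From each cell type list the member with the highest level was named. Other genes are said to be chosen after their values were seen or are given only as list members. The genes and lists were chosen with earlier results of these data known. Arrays of other organs were not analysed here. Older symbols were matched through RefSeq GRCm38.p6 (14307 symbols current, 2927 through an older name, 904 unmatched). Promoter windows also came from RefSeq. Alternatives covered background correction, scaling, the detection filter, the variance model, a replicate block, a stricter threshold, gene means and leaving out each array.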

Additional observations from a re-analysis of the deposited data

How the results depend on the processing

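Under 19 alternatives the 13 tested urea cycle probes gave 247 values, of which 225 kept direction and side of the threshold, 15 lost the call, 7 gained it and 0 changed direction. At a threshold of 0.01, 1 member probe stayed higher and 1 lower (*Arg1* and *Nags* ILMN_2617735), and over all probes 695 were higher and 974 lower, against 1700 and 1851. With array weights 3 member probes were higher, the *Cps1* probes being added (adjusted p = 0.0261 and 0.0305, limma). With gene means in place of probes 2 members were lower, since 3 *Nags* and 2 *Gls2* probes become 1 value each. Leaving out single arrays gave 1 to 3 member probes higher and 2 to 7 lower, and 854 to 1824 higher and 964 to 2126 lower over all probes. Without any filter *Gls2* ILMN_2762640 lost its call (adjusted p = 0.0902, limma). Without background correction differences of dim probes shrank, to -0.47 for *Nags* ILMN_2617735, -1.29 for *Rhbg*, -0.74 for *Gcgr*, 0.52 for *Prodh* and -3.97 for *Cyp1a2*, each still called. With trimmed mean scaling and no background correction, both changed at once, *Ctsc* and *Foxa2* were not called (adjusted p = 0.0633 and 0.0513, limma). The cause of these changes was not tested where the setting itself does not give it.

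Replicate numbers are shared between the groups. Deviations of same-numbered arrays correlated at only 0.02, 0.10 and 0.05, and not every array correlated best with its own number. These values gave no ground for treating the numbers as pairs. With so few arrays they cannot exclude that same-numbered pups shared a litter, which is not given. With replicate number as a block, 1 member probe was higher and 4 lower, and 1568 and 1645 over all probes. Median scaling moved the share of higher calls from 47.9% to 40.5%, and no scaling moved the median of all probes by over 0.1. With 3 arrays per group, an interval that includes 0, as for *Cps1*, *Ass1*, *Asl* and *Slc25a15*, does not show that a level stayed the same, and nothing can be said of *Otc*, *Slc25a13* and *Glul*.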
